A study of Mus musculus with 6 samples.

Results

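The Ly6 and Lypd genes described here were *Lypd8*, *Lypd2*, *Lypd3*, *Ly6d*, *Ly6a*, *Ly6e* and *Ly6c1*, 7 genes chosen by name from earlier results of these data. All 7 had a row in the single-cell table of 24077 genes and in the spatial tables of 30828 genes. The study used CD-1 mice given corn oil (CO) or diethylstilbestrol (DES), a synthetic estrogen, at 1 mg/kg/day on postnatal days 1 to 5, and every uterus was taken at 12 months of age. Dissociated uterine cells gave 1 CO library pooled from 2 mice and 1 DES library pooled from 4 mice. Frozen sections on Visium slides, where each spot can hold several cells, came from 1 mouse each. There were 2 CO sections (CO A and CO B) and 2 DES sections (DES A and DES B). Per the study, CO mice were picked in estrus, since adult DES mice stay in estrus. Mice for the sections were selected after a pathologist looked for epithelium in both groups and for adenocarcinoma in DES tissue. Their blocks were cored to areas of interest. A single pooled library per condition allows no test between conditions, so single-cell differences are given as levels with counting intervals, and replicate error comes only from the sections.

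The Ly6/uPAR family encodes small proteins built on a disulfide-bonded, finger-like fold (the LU domain), most of them tethered to the outer cell membrane by a glycosylphosphatidylinositol (GPI) lipid anchor and some of them secreted. *Ly6a* encodes stem cell antigen, used to sort progenitor cells and made by many endothelial and epithelial cells, and *Ly6e* is an interferon-inducible member that is also a receptor for a placental syncytin. *Ly6c1* marks endothelium and subsets of leukocytes. *Ly6d* is known from keratinocytes and from early B cells, and *Lypd3* from the suprabasal layers of stratified squamous epithelium. *Lypd8* is best known from the colon, where its product binds flagellated bacteria at the epithelial surface. *Lypd2* is a smaller and less studied member.

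The 5 members other than *Lypd8* and *Lypd3* lie on chromosome 15, where the stretch from *Lypd2* to *Ly6c2*, a near copy of *Ly6c1*, spans 379.7 kb (GRCm38, GENCODE M21). *Lypd2* occupies chr15:74732247-74734329 on the minus strand, *Ly6d* chr15:74762056-74763620 (minus), *Ly6e* chr15:74955051-74959905 (plus), *Ly6a* chr15:74994877-74998031 (minus) and *Ly6c1* chr15:75044018-75048830 (minus). *Lypd8* lies at chr11:58379043-58390728 (plus) and *Lypd3* at chr7:24636550-24641118 (plus). *Lypd3* overlaps 1367 bases of *Gm26550* on the other strand, and the other members overlap no annotated gene.

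*Ly6c1* and *Ly6c2* are shown side by side because a read can fall where they do not differ. Their coding sequences share 387 of 396 bases (97.7%). The last 90 coding bases, stop codon included, lie at chr15:75045402-75045491 for *Ly6c1* and chr15:75108543-75108632 for *Ly6c2*, both on the minus strand, and are written 5′ to 3′ with capitals at the bases that differ:
Ly6c1: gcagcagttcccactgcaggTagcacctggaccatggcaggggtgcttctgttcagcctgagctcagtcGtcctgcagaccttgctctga
Ly6c2: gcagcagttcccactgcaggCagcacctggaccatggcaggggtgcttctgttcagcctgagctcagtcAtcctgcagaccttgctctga
Counted from the first base shown, with the *Ly6c1* base first, the differences are T21C and G70A. In the last 500 transcript bases of *Ly6c1*, 25 of 401 windows of 100 bases (6.23%, the single-cell read length) and 35 of 411 windows of 90 bases (8.52%, the section read length) also occur in *Ly6c2*. No such window of the other members occurs in another gene, so only *Ly6c1* counts carry this uncertainty.

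Promoter sequence was found for 3 of the 7 members, *Lypd8*, *Lypd3* and *Ly6c1*, and is shown for the members that were higher and the member that was lower in DES sections. Each line is the 250 bases, 5′ to 3′, before the RefSeq start site nearest to the start of the GENCODE gene (GRCm38.p6), at chr11:58378782-58379031 (plus), chr7:24636320-24636569 (plus) and chr15:75048838-75049087 (minus), with capitals at motif letters:
Lypd8: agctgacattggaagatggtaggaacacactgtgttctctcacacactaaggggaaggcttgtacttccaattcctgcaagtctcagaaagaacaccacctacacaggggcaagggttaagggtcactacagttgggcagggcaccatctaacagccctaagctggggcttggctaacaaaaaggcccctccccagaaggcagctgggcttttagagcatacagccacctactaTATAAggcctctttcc
Lypd3: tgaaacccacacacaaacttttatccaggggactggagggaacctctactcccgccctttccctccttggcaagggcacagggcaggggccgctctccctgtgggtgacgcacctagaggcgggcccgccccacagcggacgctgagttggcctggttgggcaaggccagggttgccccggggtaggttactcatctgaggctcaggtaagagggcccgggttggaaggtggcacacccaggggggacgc
Ly6c1: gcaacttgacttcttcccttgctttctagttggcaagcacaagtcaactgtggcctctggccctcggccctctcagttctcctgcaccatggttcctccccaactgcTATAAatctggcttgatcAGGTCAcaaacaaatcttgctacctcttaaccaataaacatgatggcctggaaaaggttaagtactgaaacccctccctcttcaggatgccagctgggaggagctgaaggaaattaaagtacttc
Both strands were searched for the interferon-stimulated response element (TTTC 2 bases before another TTTC, held by 2.98% of 32851 promoters of this length), the gamma-activated site (TTCNNNGAA, 7.02%), the AP-1 site (TGANTCA, 6.75%), the estrogen response element (GGTCA 3 bases before TGACC, 0.0639%), the single AGGTCA that overlaps it (14.02%) and TATAA (22.8%). None of the first 4 was found in these windows. TATAA, whose letters were added to the search after the sequences were seen, began 16 bases before the *Lypd8* start site and 143 bases before that of *Ly6c1*, and AGGTCA began 125 bases before that of *Ly6c1*. A match of letters is a description and says nothing of what binds there.

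The CO library held 32387 cells (median 6779 unique molecular identifiers, UMIs, which count captured RNA molecules) and the DES library 16312 cells (median 10153.5), of which 12253 and 9701 carried a cell type from the study. The libraries shared 180 barcodes. The CO library had 341 endothelial and 1326 stromal cells where the DES library had 5 and 1, so those types cannot be compared. Cells named mesothelial carried the summed mesothelial markers at 3050 (CO) and 3156 (DES) CPM (a gene's UMIs relative to all UMIs of the group) but the stromal markers at 21126 and 21755 CPM, and cells named lymphocytes carried more myeloid marker UMIs (3494 and 8933 CPM) than lymphocyte marker UMIs (1088 and 865 CPM), so both names are used only as the study's. The sections held 1357 to 1834 spots and 9117099 to 12506177 UMIs. Section CO B had a tissue fold, and its spot cluster 10 carried stratified keratins (described with *Ly6d*).

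In the CO library each member had its own pattern over cell types. *Ly6c1* was highest in endothelium, at 1087 CPM (exact 95% Poisson interval 1048 to 1128), against 22.5 CPM (19.9 to 25.4) in stromal cells and 22.2 CPM (16.5 to 29.3) in lymphocytes, which overlapped. Endothelial cells were 2.78% of annotated CO cells and held 74.6% of their *Ly6c1* UMIs, and non-basal epithelium held 13.1%. A further 3335 *Ly6c1* UMIs lay in CO cells without a cell type. Intervals here and below cover counting error only.

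*Ly6a* was highest in CO endothelium at 977 CPM (939.7 to 1016) and lymphocytes at 911 CPM (872 to 951), whose intervals overlapped. It then stood at 661 CPM (655 to 666) in epithelium, 213 CPM (205 to 222) in stromal cells and 31.1 CPM (29.9 to 32.4) in mesothelial cells. *Ly6e* was the most evenly spread member. It was highest in CO endothelium at 1632 CPM (1583 to 1681), and epithelium at 751 CPM (745 to 757), lymphocytes at 728 CPM (693 to 764) and myeloid cells at 698 CPM (633 to 767) were not separated by their intervals. Mesothelial cells had 492 CPM of *Ly6e*, stromal cells 228 CPM and myocytes 154 CPM, the lowest.

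*Ly6d*, a B-lineage gene as well as a keratinocyte gene, was highest in CO lymphocytes at 185 CPM (167 to 203), where 16.5% of cells had a UMI after every cell was thinned to 3000 UMIs. In the other CO types with at least 50 cells it was at most 3.69 CPM. *Lypd8* and *Lypd2* were near the lower limit of detection in CO epithelium, at 2.02 CPM (1.72 to 2.36) and 5.42 CPM (4.92 to 5.96). CO mesothelial cells had 0.818 and 0.361 CPM. *Lypd3* reached at most 0.397 CPM in any CO type.

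**Figure D1:**
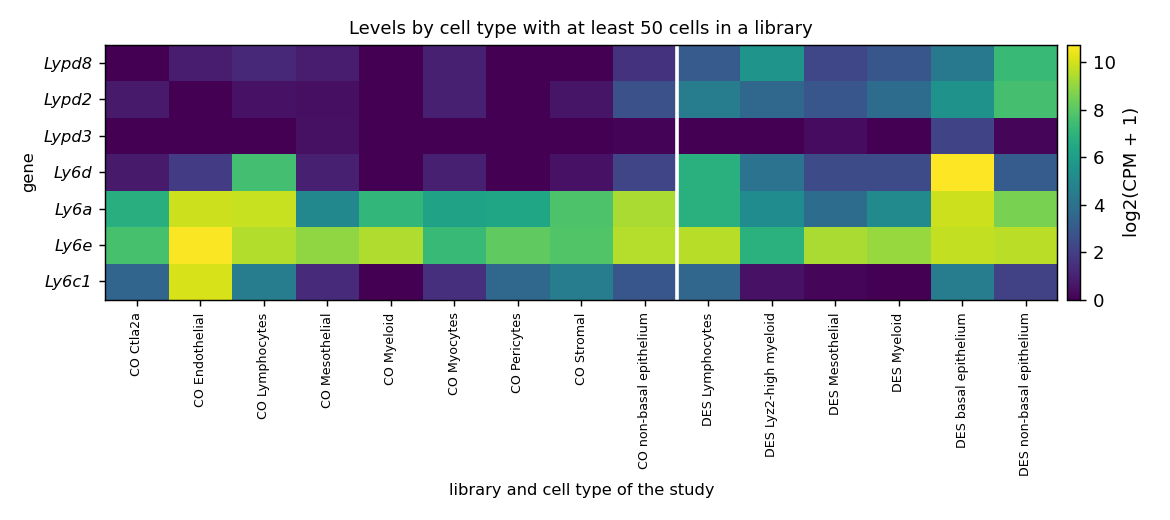
Levels of the 7 genes (rows) as log2(CPM + 1) in each cell type of the study with at least 50 cells (columns), CO library left of the white line and DES library right of it; basal epithelium is the set of cells with more than 1 UMI each of Krt14 and Trp63. Ly6c1 is brightest in CO endothelium (1087 CPM), Ly6d in DES basal epithelium (1711 CPM), and Lypd8 and Lypd2 in DES non-basal epithelium (156 and 191 CPM).

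The first comparison asked how the members differed between CO and DES epithelium once the basal cells, found only in the DES library, were set aside. Non-basal epithelium was taken as the cells that the study placed in an epithelial cluster of 1 library, 4608 DES cells with a median of 24663.5 UMIs and 2583 CO cells with a median of 23458. *Lypd8* was 77.2 times higher in the DES library (interval 66.1 to 90.8), at 156 CPM (154 to 158) against 2.02 CPM. *Lypd2* was 35.2 times higher (32.0 to 38.8), at 191 CPM (188 to 193) against 5.42 CPM. By this ratio *Lypd8* ranked 6th and *Lypd2* 12th of the 8414 genes that reached 10 CPM in 1 library or both. The members were picked with this contrast known, so nothing is read from these ranks. With clusters weighted equally the ratios were 54.8 for *Lypd8* and 57.9 for *Lypd2*, so their order turned.

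*Ly6a* was lower in the DES library, at 384 CPM (381 to 387) against 661 CPM, a ratio of 0.582 (0.575 to 0.588). *Ly6e* was at 790.3 CPM against 751 CPM, a ratio of 1.052 (1.042 to 1.063). *Ly6d* stood at 7.72 against 3.69 CPM and *Ly6c1* at 3.19 against 6.37 CPM, while *Lypd3* was at 0.110 and 0.0888 CPM, with intervals that overlapped. Of the 4 members with at least 10 CPM in either library, 2 were at least 2-fold higher in DES and 0 at least 2-fold lower. Over all 8414 such genes 6.92% were at least 2-fold higher and 7.71% at least 2-fold lower, and since the members were picked with this contrast known, nothing is read from their count.

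The 2 Lypd genes differed in how many cells carried them. After thinning, a *Lypd8* UMI was found in 12.9% of DES non-basal cells (exact Clopper-Pearson interval 11.9 to 13.9) and in 0.625% (0.357 to 1.01) of CO cells, or in 29.6% and 3.64% before thinning. *Lypd2* was found in 36.3% (34.9 to 37.8) of DES cells and 1.44% (1.02 to 1.99) of CO cells, or in 77.1% and 9.29% before thinning. The matching thinned shares in mesothelial cells (median 12329 UMIs in DES, 10436 in CO) were 1.35% and 0.298% for *Lypd8* and 2.54% and 0.104% for *Lypd2*. Thinning left out 49 DES and 21 CO non-basal cells with fewer than 3000 UMIs. The top 10% of DES cells by thinned *Lypd8* UMIs held 93.5% of them, with up to 30 in a cell, against 49.2% for *Lypd2*, with up to 8.

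*Ly6a* UMIs were found in 48.6% (47.1 to 50.03) of thinned DES cells and 70.6% (68.8 to 72.4) of CO cells, and *Ly6e* UMIs in 82.8% and 82.1%, with overlapping intervals. *Ly6d* was at 1.69% (1.34 to 2.11) of DES and 1.01% (0.664 to 1.48) of CO cells. The DES share of *Ly6d* overlapped that in DES mesothelial cells, 1.11% (0.802 to 1.498).

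Over the DES epithelial clusters, *Lypd8* and *Lypd2* were highest in different cells. Cluster 1, which was 11.6% of the DES non-basal cells, held 60.8% of the *Lypd8* UMIs at 729 CPM (717 to 740.1). Clusters 6 and 5 followed at 224 CPM (217 to 231) and 219 CPM (209 to 229), which overlapped. Cluster 6 was described in the study as cycling and cluster 5 as its proposed cancer cells. Clusters 10 and 0 had 98.5 and 95.8 CPM, also overlapping, and clusters 3, 7, 8, 13 and 14 had between 2.17 and 6.86 CPM.

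*Lypd2* was highest in the small cluster 14, at 839.9 CPM (804 to 877), followed by cluster 3 at 379 CPM (366 to 392). Clusters 4, 12 and 8 had 349, 328 and 317 CPM, and each overlapped the next. In cluster 1 *Lypd2* stood at 74.9 CPM and in cluster 14 *Lypd8* at 3.30 CPM, so the cluster highest for either gene was among the lower ones for the other. The lowest *Lypd2* level, 45.4 CPM (37.9 to 54.0) in cluster 15, was still above the highest CO cluster, cluster 5 at 24.0 CPM (20.4 to 28.0). *Lypd8* in CO was at most 5.07 CPM (2.77 to 8.50), in cluster 10.

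Cells with *Lypd8* and cells with *Lypd2* overlapped in part. Among 4559 thinned DES cells, 587 had a *Lypd8* UMI, 1657 had a *Lypd2* UMI and 139 had both, which was 23.7% of the *Lypd8* cells and 8.39% of the *Lypd2* cells. Within cluster 1, 272 of 534 cells had *Lypd8*, 81 had *Lypd2* and 44 had both. In cluster 14, 60 of 67 cells had *Lypd2* and 1 had *Lypd8*.

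*Ly6a* followed neither gene exactly. It was highest in DES cluster 15 at 1322 CPM (1279 to 1365) and then in cluster 1 at 699 CPM (688 to 710.2) and cluster 5 at 627 CPM (611 to 644), and lowest in cluster 8 at 69.0 CPM (62.5 to 76.0). *Ly6e* ranged less, from 402 CPM (386 to 418) in cluster 8 to 1161 CPM (1146 to 1175) in cluster 1. In CO, *Ly6a* was highest in cluster 5 at 1579 CPM (1548 to 1609). The clusters that the study called developing gland came next, cluster 14 at 1211 CPM, cluster 3 at 1136 CPM and cluster 8 at 1061 CPM, while its mature gland cluster 13 had 43.8 CPM (31.1 to 59.9), the lowest. *Ly6e* in that cluster was 757 CPM, and its lowest CO level was 220.0 CPM in the *Foxa2*-positive cluster 11. CO cluster 5 was also the highest for *Ly6e* (1366 CPM), *Lypd2*, *Ly6d* (15.2 CPM) and *Ly6c1* (17.5 CPM). For *Ly6c1* its interval (14.4 to 21.0) overlapped that of cluster 12 at 10.2 CPM (6.04 to 16.1).

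**Figure D2:**
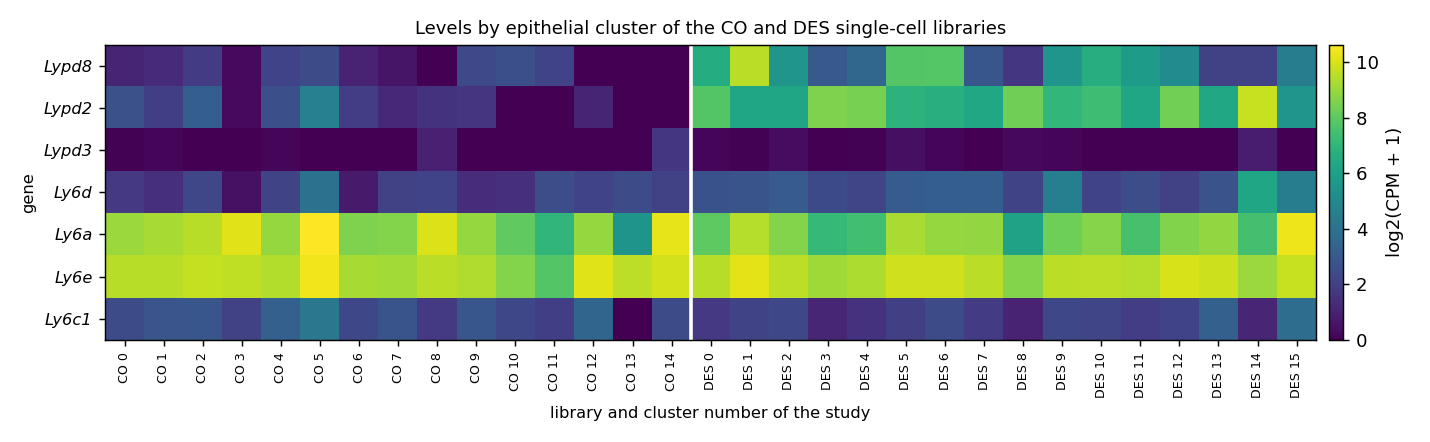
Levels of the 7 genes (rows) as log2(CPM + 1) in the 15 CO and 16 DES epithelial clusters of the study (columns), with the white line between the libraries. Lypd8 is brightest in DES cluster 1 (729 CPM) and Lypd2 in DES cluster 14 (839.9 CPM). Among the CO clusters Lypd8 reaches at most 5.07 CPM (cluster 10) and Lypd2 at most 24.0 CPM (cluster 5).

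Across the 16 DES clusters, on log2(CPM + 1), Pearson's r between *Ly6a* and *Ly6e* was 0.85, between *Lypd8* and *Ly6e* 0.69, between *Lypd8* and *Lypd2* −0.42 and between *Lypd2* and *Ly6a* −0.71. All 16 share a library and were built from these counts, so the values are descriptions. Over all 31 clusters, among 4688 genes with at least 50 CPM in some cluster, the genes most like *Lypd8* were *Gbp4* (r = 0.88), an interferon-induced GTPase gene, *Tmem50b* (0.87) and *Upk1a* (0.86), which encodes a uroplakin of urothelial plaques. Those most like *Ly6a* were *Wnt7b* (0.84), *Fam20c* (0.80) and *Bst2* (0.75), the tetherin gene. *Ly6c1* was most like *Ly6a* (0.75), and *Ly6e* had *Mal* (0.74), *Cdo1* (0.65) and *Ly6a* (0.61). *Lypd2* had *AC114008.1* (0.91), *Cacnb3* (0.90) and *Parva* (0.90). The clusters of the libraries form separate groups for *Lypd2* and overlap for *Lypd8*, and r values over both libraries also carry the difference between them.

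*Ly6d* was highest in the basal cells of the DES library. Basal cells, taken as epithelial cells with more than 1 UMI of the basal keratin gene *Krt14* and more than 1 of *Trp63*, numbered 483 in the DES library (4 of them in a cluster counted as non-basal) and 0 in the CO library. Their *Ly6d* level was 1711 CPM (1685 to 1737), with a UMI in 87.2% (83.8 to 90.02) of cells after thinning, against 7.72 CPM and 1.69% in DES non-basal epithelium. They were 4.98% of annotated DES cells and held 75.0% of the *Ly6d* UMIs. A further 168 DES epithelial cells, in neither set, had *Ly6d* at 1514 CPM (1467 to 1563) and basal markers at a summed 5234 CPM, against 8029 CPM in the basal cells and 96.2 CPM in the non-basal ones.

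The other members were not spread alike between basal and non-basal DES cells. *Ly6a* was at 966 CPM (947 to 986) in basal cells against 384 CPM, and *Ly6e* at 874 CPM (856 to 892) against 790.3 CPM. *Ly6c1* had 22.1 CPM (19.3 to 25.3) against 3.19 CPM. *Lypd8* and *Lypd2* were lower in the basal cells, at 19.4 CPM (16.8 to 22.4) and 43.6 CPM (39.6 to 47.9). *Lypd3* had 3.54 CPM (2.46 to 4.92) in basal cells, from 35 UMIs, against 0.110 CPM, from 18 UMIs. In the integrated clustering of both libraries the study called clusters 8 and 11 basal, and *Ly6d* was at 2111 CPM in the first and 1596 CPM in the second.

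In some non-basal clusters most *Ly6d* UMIs lay in few cells. In DES cluster 14, the highest at 74.7 CPM (64.2 to 86.4), 2 of 67 cells held 164 of 181 *Ly6d* UMIs. In cluster 9, at 23.0 CPM, 8 of 190 cells held 147 of 178. Over all DES non-basal cells, 23 cells with more than 5 *Ly6d* UMIs held 44.5% of them, so most lay in other cells. A UMI of *Krt5*, *Krt14* or *Trp63* was found in 22 of these 23 cells. The same held for 2 of the 2 such cells in cluster 14 and 8 of the 8 in cluster 9. The share among the other cells was not counted. Over the 31 clusters the genes most like *Ly6d* were *Ltbp1* (r = 0.75), *Krt14* (0.71) and *Stra6* (0.69).

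Outside the epithelium, *Ly6a* was lower in the DES library in each type with at least 50 cells in both libraries. The ratio was 0.123 (0.105 to 0.144) in lymphocytes, at 112 against 911 CPM, 0.248 (0.178 to 0.345) in myeloid cells and 0.411 (0.380 to 0.445) in mesothelial cells. Cells named lymphocytes had myeloid markers at 3494 CPM in CO and 8933 CPM in DES, and lymphocyte markers at 1088 and 865 CPM. The part of this make-up in their ratio was not tested. The ratio for *Ly6e* was 0.769 (0.688 to 0.862) in myeloid cells and 1.36 (1.34 to 1.38) in mesothelial cells. DES mesothelial cells had 3.82 CPM of *Lypd8*, 6.29 CPM of *Lypd2* and 4.47 CPM of *Ly6d*, above the CO values of 0.818, 0.361 and 0.951 CPM. The part of free RNA in these low levels was not tested.

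The sections gave 2 mice per condition, and levels there are CPM over all spots. Values follow in the order CO A and CO B, then DES A and DES B. *Ly6d* was at 1.68 and 34.1 in CO and at 2334 and 1290.0 in DES. *Lypd2* was at 4.64 and 1.45 in CO and at 141 and 58.0 in DES. *Lypd3* was at 0.0800, from 1 UMI, and 2.08 in CO and at 34.6 and 11.6 in DES. Both DES sections were above both CO sections for all 3, and for *Ly6d* the lower DES section was still far above CO B.

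*Lypd8* was at 1.12 and 0.363 in CO and at 5.81 and 66.3 in DES, so most of its difference lay in DES B. A *Lypd8* UMI was found in 14.7% of DES B spots (12.9 to 16.7) and 2.35% of DES A spots (1.66 to 3.22). *Ly6e* was at 622 and 906 in CO and at 1394 and 1139 in DES. *Ly6a* was at 520 and 969.6 in CO and at 1008 and 901 in DES, so the groups overlapped. *Ly6c1* was at 82.1 and 117 in CO and at 37.1 and 34.8 in DES, both DES sections below both CO sections.

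Fold changes came from edgeR's quasi-likelihood fit over the 14098 genes that passed its count filter, with trimmed-mean (TMM) scaling. They are log2 of DES over CO, from 2 against 2 sections. Each standard error (SE) was worked back from the test, as the absolute log2 fold change divided by the square root of its F statistic. The log2 fold changes were 6.47 ± 1.46 for *Ly6d*, 5.37 ± 1.42 for *Lypd8*, 4.78 ± 0.72 for *Lypd2* and 4.23 ± 1.11 for *Lypd3*. *Ly6e* had 0.52 ± 0.24, *Ly6a* 0.16 ± 0.32 and *Ly6c1* −1.68 ± 0.22. All 7 members passed the filter. No p is given for them, since they were chosen with results of these data known. With 1 section left out, *Lypd8* ranged from 2.67 without DES B to 6.44 without CO A, and *Lypd2* from 4.03 without DES A to 5.89 without CO A. *Ly6d* ranged from 5.54 without CO A to 9.82 without CO B, and *Lypd3* from 3.26 without CO A to 7.74 without CO B, with 3.28 without DES A.

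On TMM-scaled CPM, 5 members (*Lypd8*, *Lypd2*, *Lypd3*, *Ly6d* and *Ly6e*) had both DES sections above both CO sections, as 28.6% of all tested genes did, and 1 (*Ly6c1*) had both below, as 27.8% did. Before that scaling the median gene was 0.18 higher in DES on the log2 scale, and the calls for the members were alike. In a section, fewer cells of a type and less RNA per cell cannot be told apart. Muscle markers summed to 14758 and 16169 CPM in CO A and CO B against 3562 and 4036 CPM in DES A and DES B, and stromal markers to 2915 and 2931 against 1359 and 968 CPM. Myeloid markers summed to 425 and 827 CPM in CO against 2288 and 1335 CPM in DES, and in epithelium-rich spots to 187 and 295 against 1723 and 899 CPM. Their part in these differences was not tested.

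**Figure D3:**
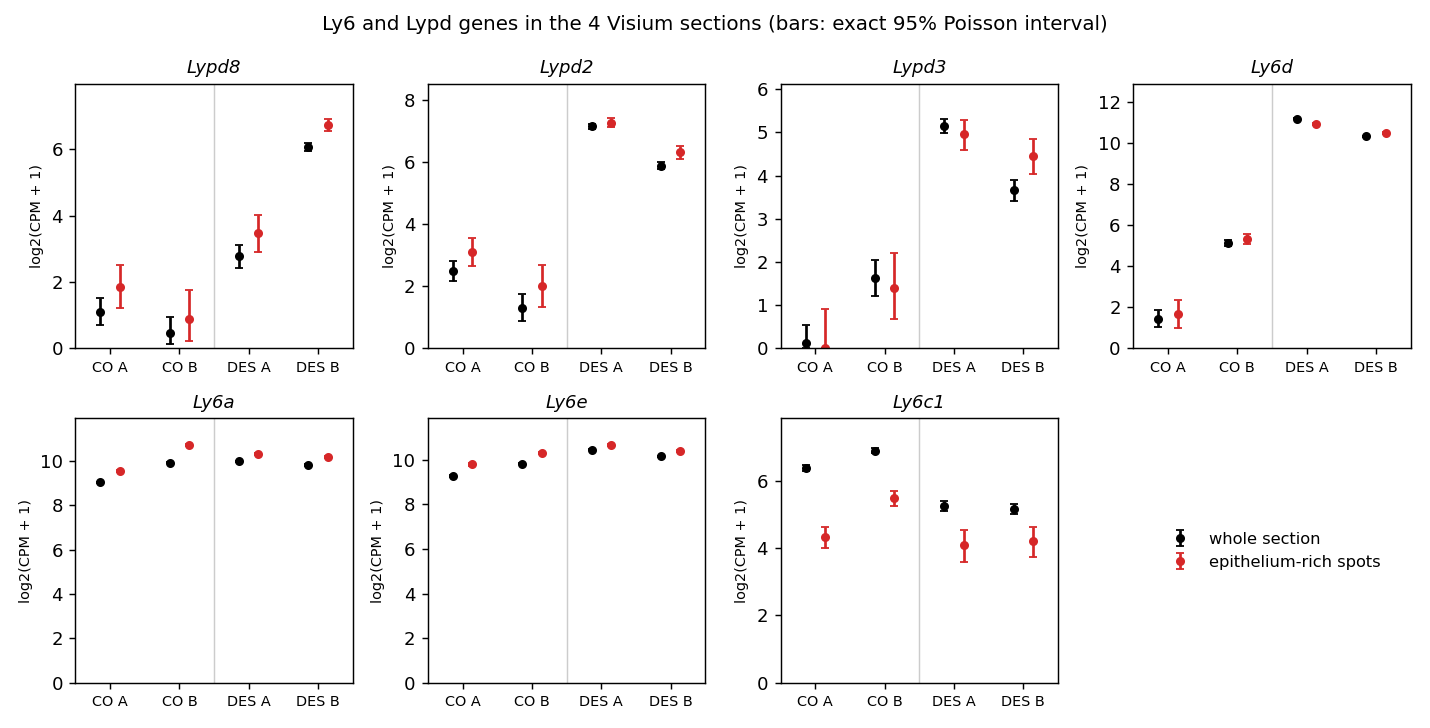
Level of each gene in the 4 sections as log2(CPM + 1), whole sections and epithelium-rich spots, with exact 95% Poisson intervals as bars. Lypd8, Lypd2, Lypd3 and Ly6d sit higher in both DES sections than in either CO section, Ly6c1 sits lower in both (37.1 and 34.8 against 82.1 and 117 CPM), and Ly6a overlaps between the groups.

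To bring the comparison nearer to epithelium, the fit was repeated on the 20% of spots in each section (271 to 367 spots) with the largest share of UMIs from 8 epithelial markers, none of them a member. *Ly6d* there was at 2.15 and 38.6 in CO and at 1938 and 1448 in DES, a log2 fold change of 6.09 ± 1.19. *Lypd8* was 2.62, 0.821, 10.1 and 106 in the same order (4.70 ± 1.25), *Lypd2* was 7.63, 3.01, 153 and 78.7 (4.09 ± 0.53), and *Lypd3* was 0, 1.64, 29.997 and 21.0 (4.66 ± 0.86). These 4 again had both DES sections above both CO sections, as 28.9% of the 11695 genes tested did on TMM-scaled CPM. With 1 section left out, *Lypd8* ranged from 2.17 without DES B to 5.79 without CO A, and *Lypd2* from 3.57 without DES A to 4.95 without CO A. Without CO B *Lypd3* stood at 9.06 and *Ly6d* at 9.27. Without CO A *Lypd3* stood at 3.63 and *Ly6d* at 5.16.

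*Ly6a* in these spots was 738, 1667, 1261 and 1147 CPM (−0.30 ± 0.38), and the DES sections lay between the CO sections. *Ly6e* was 885, 1269, 1618 and 1341 CPM (0.15 ± 0.24), above CO in plain CPM, as 47.8% of genes were, but overlapping after TMM scaling. *Ly6c1* was 19.1, 43.5, 15.9 and 17.4 CPM (−1.21 ± 0.42), both DES sections below both CO sections, as 13.8% of genes were in plain CPM and 28.3% after TMM scaling. Without CO B it stood at −0.52. The sign of *Ly6a* turned without CO B (0.38) and that of *Ly6e* without CO A (−0.07). The median gene was 0.28 higher in DES before scaling.

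The spot clusters of each section showed where the members lay, and for DES B the study found its clusters hard to identify. In DES B, *Lypd8* was highest in cluster 2 at 157 CPM, which held 74.7% of the section's *Lypd8* UMIs, while *Lypd2*, at 119 CPM, and *Ly6d*, at 2724 CPM, were highest in cluster 7. In DES A, cluster 2 was highest for *Lypd8* at 17.3 CPM (79.2% of its UMIs), and cluster 1 was highest for *Lypd2* at 213 CPM, *Ly6d* at 3708 CPM and *Lypd3* at 63.1 CPM. In both DES sections the cluster highest for *Lypd8* was not the one highest for *Lypd2* or *Ly6d*. *Ly6a* and *Ly6e* were present in every cluster, at 124 CPM or more for *Ly6a* and at 122 CPM or more for *Ly6e*.

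In the CO sections *Ly6d* was at most 5.37 CPM in any CO A cluster. In CO B, cluster 10, a group of 17 spots, had 1175 CPM and held 61.4% of the section's *Ly6d* UMIs and 65.2% of its *Lypd3* UMIs (76.3 CPM). The genes that stood out most in those spots were *Krt6a*, *Krt13*, *Lgals7*, *Wfdc18* and *Spink5*, with *Krt5* at 3580 CPM against 30.2 CPM in the other spots. Without these spots, a check chosen after the data were seen, the whole-section fold change was 7.72 for *Ly6d* and 5.62 for *Lypd3*.

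**Figure D4:**
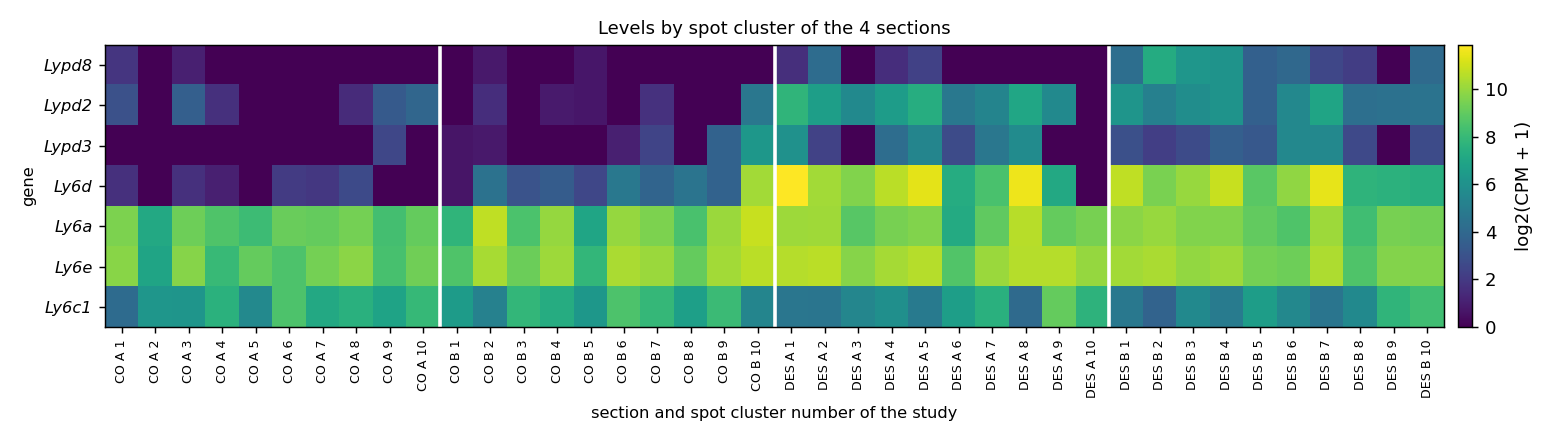
Levels of the 7 genes (rows) as log2(CPM + 1) in the 10 spot clusters of each section (columns), with white lines between sections CO A, CO B, DES A and DES B. Ly6d is bright over most DES clusters and in CO B cluster 10 alone among the CO clusters (1175 CPM), and Lypd8 is brightest in cluster 2 of DES B (157 CPM).

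*Ly6d* moved with the basal cell markers. The 5 basal markers (*Krt5*, *Krt14*, *Krt15*, *Trp63* and *Col17a1*) summed to 4.64 and 226 CPM in the CO sections and 10573 and 6662 CPM in the DES sections, with each of the 5 detected in every section. Per 100 UMIs of these markers there were 36.2, 15.1, 22.1 and 19.4 UMIs of *Ly6d* in the same order, so the DES sections lay between the CO sections. The CO A value rests on low levels of both, *Ly6d* at 1.68 CPM and the markers at 4.64 CPM. Both DES sections lay above CO B. *Lypd3* per 100 basal marker UMIs was 1.72 (from 1 *Lypd3* UMI), 0.923, 0.327 and 0.175, lower in both DES sections. How many of all genes lie so on this ratio was not counted. In epithelium-rich spots the *Lypd3* ratio was 0, 0.613, 0.306 and 0.288, with the DES sections between the CO sections.

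*Ly6c1* was read beside 8 endothelial markers, which summed to 189.7 and 309 CPM in the CO sections and 171 and 164 CPM in the DES sections. Per 100 UMIs of these markers there were 43.3 and 38.0 *Ly6c1* UMIs in the CO sections against 21.7 and 21.2 in the DES sections, so the 2 groups did not overlap. The share of all genes that do not overlap on such a ratio was not counted, so nothing is read from this. In the epithelium-rich spots the same ratio was 30.1 and 54.3 against 31.3 and 34.5, and the groups overlapped. *Ly6c2*, which shares some reads with *Ly6c1*, was at 8.40 and 27.8 CPM in the CO sections against 8.77 and 14.1 CPM in the DES sections. In single cells *Ly6c2* was highest in CO lymphocytes, at 267 CPM. The DES library had 5 endothelial cells and 0 *Ly6c1* UMIs among their 52360 UMIs. The exact upper bound of 70.5 CPM covers counting error only, and these 5 cells are not compared with CO endothelium.

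Of 38 other genes of the family, 31 had a row in the spatial tables and 21 passed the filter. This list and those below were, like the members, chosen with earlier results of these data known. Their counts and p-values are therefore descriptions. In DES whole sections 5 rose at an adjusted p under 0.05 by edgeR, beside 2.67% of all genes, and 1 fell, beside 2.63% (5.3% in either direction). DESeq2 called 5 higher and 3 lower, beside 5.83% and 6.87% of all genes. At an unadjusted p under 0.05 by edgeR 6 were higher and 6 lower, while 3438 of 14098 genes were past it in either direction. *Slurp1*, a secreted keratinocyte product, had 0 and 0.181 CPM in the CO sections and 19.3 and 10.0 CPM in the DES sections (log2 fold change 7.03 ± 0.83, adjusted p = 0.025 by edgeR). *Ly6g6c* rose by 4.94 ± 0.41 (0.560 and 0.272 against 15.03 and 15.8 CPM), *Ly6k* by 3.82 ± 0.40, *Ly6g6e* by 2.63 ± 0.25 and *Lypd6* by 1.503 ± 0.27. *Gpihbp1*, which holds lipoprotein lipase on capillary endothelium and was at 425 CPM in CO endothelial cells, had 20.7 and 34.4 CPM in CO against 1.75 and 2.73 CPM in DES (−3.80 ± 0.40). The median of the 21 genes was 0.13, beside −0.01 for all genes. Without DES A or without DES B, no gene of this list kept its edgeR call. The median log2 fold change of the list was then 0.24 without DES A and 0.13 without DES B.

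In epithelium-rich spots 15 of the other family genes were tested, and 6 rose, the same 5 and *Lynx1* (1.81 ± 0.33), beside 4.19% of all genes. *Gpihbp1* again fell (−3.43 ± 0.65), beside 2.63% (6.81% in either direction). Without DES A only *Ly6g6c* passed by edgeR. Without DES B no call was kept. The median of the 18 family genes then tested was −0.07, beside 1.21 for the 15 of the full fit. *Psca*, known from prostate and bladder epithelium, did not pass in either fit, at 4.88 and 0.0906 CPM in the CO sections against 29.4 and 49.7 CPM in the DES sections. In non-basal single cells 4 other family genes reached 10 CPM, and 2 were at least 2-fold lower in the DES library, beside 7.71% of all genes, and 0 higher, beside 6.92%. *Plaur*, the urokinase receptor gene, was at 0.994 against 25.5 CPM and *Pinlyp* at 0.878 against 39.3 CPM. Besides *Ly6c2* and *Gpihbp1*, the other family genes with at least 50 CPM in a cell type were *Plaur* (218 CPM) and *Cd177* (56.4 CPM), both in DES lymphocytes, and *Cd59a* (111 CPM), a complement inhibitor gene, in CO endothelium.

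**Figure D5:**
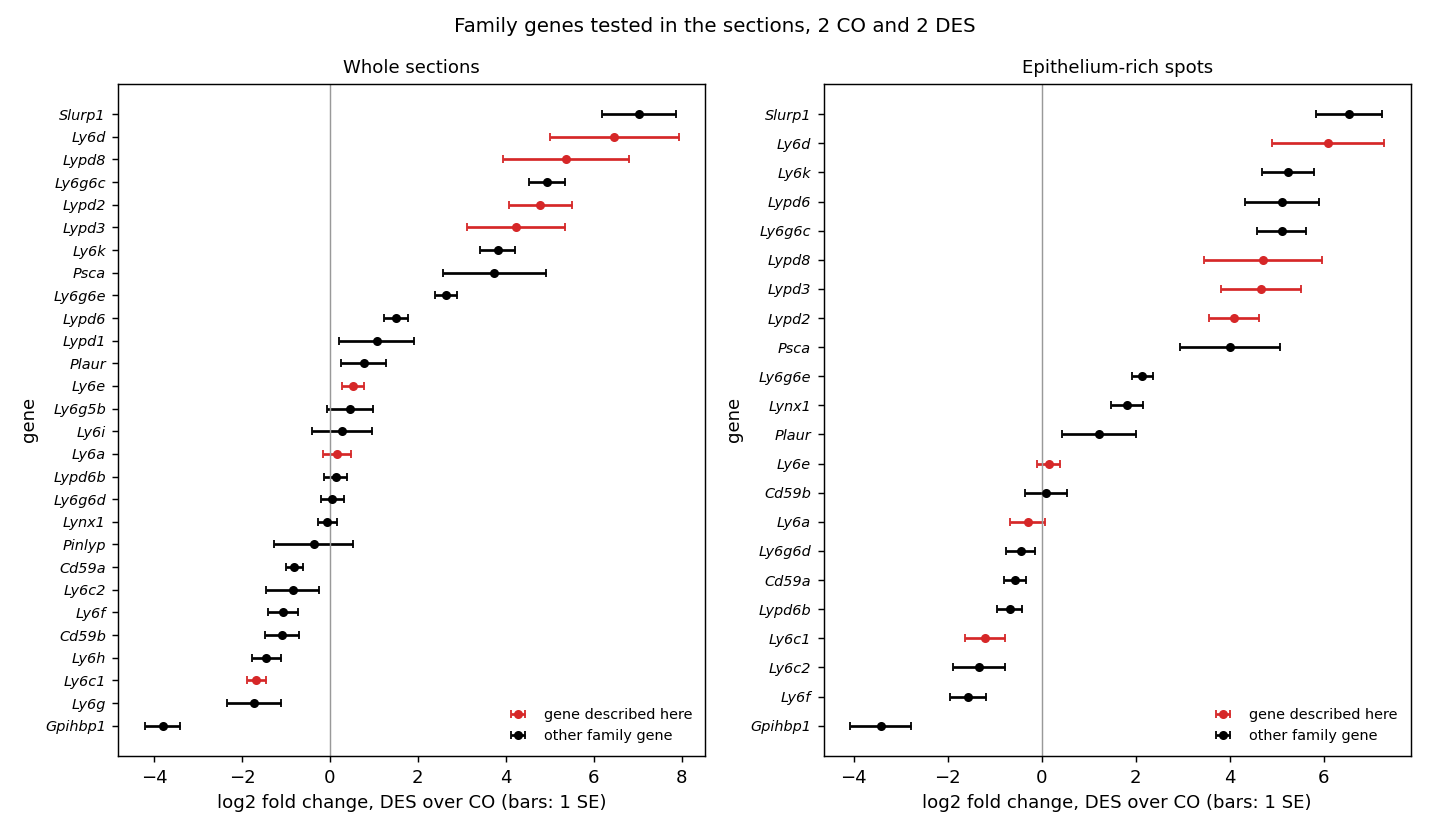
Log2 fold change (DES over CO, bars 1 SE) of each member (red) and each other family gene (black) that passed the count filter, in whole sections on the left and in epithelium-rich spots on the right. Slurp1 (7.03 and 6.54) and Ly6d (6.47 and 6.09) lie at the top and Gpihbp1 (−3.80 and −3.43) at the bottom of both panels.

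Genes that make or attach the GPI anchor were counted next. Of 28 tested in whole sections, 1 rose, beside 2.67% of all genes: *Pigu* (1.04 ± 0.18), a subunit gene of the enzyme that transfers the anchor, while 0 fell by edgeR and by DESeq2. At an unadjusted p under 0.05, 5 were higher and 0 lower, while 3438 of all 14098 genes were past it in either direction. The median log2 fold change was 0.19. In epithelium-rich spots 0 of 26 passed in either direction by edgeR or by DESeq2. At an unadjusted p under 0.05 by edgeR 2 were higher and 1 lower, while 2965 of 11695 genes were past it in either direction. Without DES A or without DES B, *Pigu* no longer passed. In non-basal single cells, of 20 tested, 1 was at least 2-fold higher and 1 at least 2-fold lower (6.92% and 7.71% of all genes). *Pigh* was 2.09 times higher in the DES library and *Piga* was at 0.270 times its CO level.

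Interferon-stimulated genes, listed because *Ly6a* and *Ly6e* can be induced by interferon, fell in part. In whole sections 8 of 21 fell and 0 rose by edgeR, beside 2.63% and 2.67% of all genes. DESeq2 called 14 lower, beside 6.87% of all genes, and 0 higher, beside 5.83%. At an unadjusted p under 0.05 by edgeR 14 were lower and 0 higher, while 3438 of 14098 genes were past it in either direction. In CPM 15 of the 21 had both DES sections below both CO sections, as 17.9% of all genes did, and 1 had both above, as 43.8% did. Among those that fell were *Rsad2* (−3.36 ± 0.38), *Ifit3* (−2.88 ± 0.42) and *Isg15* (−2.43 ± 0.27), and the median was −1.46. *Isg15*, which encodes a ubiquitin-like protein, had 143 and 122 CPM in CO against 23.1 and 33.2 CPM in DES. In epithelium-rich spots 9 of 19 fell, beside 2.63% of all genes, and 0 rose, beside 4.19%, by edgeR, with a median of −1.65. DESeq2 called 14 lower there, beside 506 of all 11695 genes, and 0 higher, beside 655. At an unadjusted p under 0.05 by edgeR 15 were lower and 0 higher, while 2965 of 11695 genes were past it in either direction. In non-basal single cells 6 of 16 were at least 2-fold lower, beside 7.71% of all genes, and 0 higher, *Ifi44* lowest at 0.247 times its CO level. Without DES A or without DES B, 0 genes of this list passed by edgeR in either fit. The median log2 fold change of the list was then −1.10 and −1.17 without DES A (whole sections and epithelium-rich spots) and −1.97 and −2.07 without DES B.

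Stratified squamous genes, the setting in which *Ly6d* and *Lypd3* are best known, rose in part in DES sections. In whole sections 6 of 17 rose, beside 2.67% of all genes, and 0 fell, beside 2.63%, by edgeR. DESeq2 called 11 higher and 0 lower, beside 5.83% and 6.87% of all genes. At an unadjusted p under 0.05 by edgeR 15 were higher and 0 lower, while 3438 of 14098 genes were past it in either direction. Among the 6 called by edgeR was *Dsg3*, a desmosomal cadherin gene, at 0 UMIs in both CO sections and 6.58 and 4.35 CPM in DES. Another was the cornified envelope gene *Sprr1a*, at 121 and 88.7 against 1409 and 1000.1 CPM (3.31 ± 0.29). All 17 had both DES sections above both CO sections in CPM, as 43.8% of all genes did. In epithelium-rich spots 8 of 15 rose, beside 4.19%. Without CO B cluster 10, 11 of 17 rose in whole sections, beside 3.04% of all genes. Without DES A or without DES B, no gene of this list kept its edgeR call in whole sections. The median log2 fold change of the list was then 3.58 and 3.91. In the epithelium-rich spots *Krt17* alone kept its call without DES A, and none did without DES B. The medians there were 3.91 and 3.89. In non-basal single cells, of 6 tested, *Krt5* alone was at least 2-fold higher in the DES library (249 times), beside 6.92% of all genes, and 3 were at least 2-fold lower, beside 7.71%, among them *Sprr1a* at 0.139 times its CO level.

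Of the partners described for the *Lypd3* product, which include laminin and integrin chains of the hemidesmosome, 6 were tested. In whole sections *Itgb4* (1.62 ± 0.20) and *Lamb3* (0.94 ± 0.16) rose, beside 2.67% of all genes, and 0 fell by edgeR, with 0 lower at an unadjusted p under 0.05 and 0 by DESeq2. In epithelium-rich spots *Agr2*, whose product is a secreted disulfide isomerase, rose (1.63 ± 0.22), beside 4.19% of all genes, and the other 5 did not pass. In non-basal single cells *Lama3* was at 0.308 times its CO level. Without DES A or without DES B, no gene of this list kept its edgeR call. The median log2 fold change of the list was then 0.54 and 0.61 in whole sections, and 0.03 and −0.03 in epithelium-rich spots.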

How the data were processed

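Single-cell and Visium libraries of mouse uterus were analysed. Per the labels and the study's methods, the authors demultiplexed with bcl2fastq 2.20.0.422, counted UMIs with Cell Ranger 3.0.1 (cells) and Space Ranger 1.2.2 (spots) against mm10, looked for swapped barcodes, and removed doublets. The deposited values are raw UMI counts per gene and cell or spot, with the authors' cell types and clusters, which were used as given; no further doublet caller was run. The deposited annotation also gives the authors' sequencing saturation per cell, the proportion of reads whose UMI had been seen already, which was not used here. For 350 barcodes it had blank entries and no counts.

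Counts were summed per library and cell group, or per section, and divided by total UMIs (CPM). Intervals are exact Poisson and Clopper-Pearson (95%), ratios of 2 libraries have exact conditional intervals, and shares were thinned to 3000 UMIs per cell. PCR and capture error are outside these intervals. Sections were tested with edgeR 4.0.16 (glmQLFit, glmQLFTest, filterByExpr, TMM, Benjamini-Hochberg at 0.05). DESeq2 1.42.0, other size factors, other filters and each section left out in turn were the alternatives. Scripts ran in R 4.3.3 and Python 3.11.15.

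The members, the gene lists and the marker lists were chosen with earlier results of these data known. All members are named, as are other family genes past the threshold or at 50 CPM in a cell type and up to 4 of each other list. *Psca*, *Lynx1* and *Pinlyp* are named outside that rule, after their values were seen.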

Additional observations from a re-analysis of the deposited data

Results flagged for a closer look

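Cells without a cell type in the study's annotation enter no comparison above, and 4 members were higher in those of the DES library (6611 cells, median 2178 UMIs) than in those of the CO library (20134 cells, median 4137.5 UMIs). *Lypd8* was at 74.1 against 0.849 CPM, *Lypd2* at 85.5 against 1.85 CPM, *Lypd3* at 1.06 against 0.147 CPM and *Ly6d* at 112 against 3.97 CPM. Of the 4757 *Ly6d* UMIs in the DES cells of this kind, 91.6% lay in 102 cells with more than 5 of them. Nothing is read from the count of members, since the share of all genes higher in these cells was not counted. The DES and CO groups differed in make-up, with summed basal markers at 500 CPM in DES against 5.19 CPM in CO. Myeloid markers summed to 804 against 95.1 CPM and stromal markers to 4024 against 7078 CPM. The part of this make-up in the differences was not tested.

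For 2 members the ratio of the DES to the CO library pointed in opposite directions in different cell types, with intervals that left out 1. The difference between types was not tested. *Lypd3* was at 4.03 times its CO level (1.84 to 10.4) in epithelial cells. In mesothelial cells it was at 0.702 times (0.372 to 1.28), an interval that held 1. *Ly6d* was 33.9 times higher in epithelial cells, basal cells included, and 4.71 times higher in mesothelial cells, but at 0.604 times its CO level in lymphocytes. The marker make-up of the cells named lymphocytes differed between the libraries, as given above. *Ly6e* was at 1.06 times its CO level in epithelial cells and 1.36 times in mesothelial cells, but at 0.769 times in myeloid cells. Each ratio rests on 1 pooled library per condition.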

How the results depend on the processing

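No paired analysis was possible because the labels give only sample B in each group, so the groups share fewer than 2 numbers. In whole sections 747 genes passed by edgeR and in epithelium-rich spots 797. DESeq2 called 1791 in whole sections. Leaving out 1 section at a time gave 3 to 2819 in whole sections and 10 to 3195 in epithelium-rich spots, lowest without DES B and highest without CO A, with 14 and 104 without DES A and 2336 and 3073 without CO B. With 1 section left in a group, that section is assumed to vary like the others. The cause was not tested. The other alternatives kept these counts within 1.5 times. In the sections 126 of 140 alternative values of the members' log2 fold changes lay within 1 SD between sections of the value reported. In single cells 15 of 42 alternative levels and ratios, and 22 of 28 alternative shares of cells, lay outside the spread or interval of the value reported. The sign of *Ly6a* turned in 1 of 9 alternatives in whole sections, without CO A (−0.21), and in 1 of 11 in epithelium-rich spots, and that of *Ly6e* in 1 of 11. The other 5 members kept their sign in all of them. In non-basal epithelium 3 members in place of 2 were at least 2-fold higher when basal cells were counted in or clusters were weighted equally, the third being *Ly6d*. Leaving out barcodes found in both libraries, and the spots of CO B cluster 10, were chosen after the data were seen. Depth limits *Lypd3*, with 7 and 18 UMIs in non-basal epithelium.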
